A study of Mus musculus with 7 samples.

Results

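The comparison set the brain of mice dosed for 10 days with an Ephedra herba extract against the brain of undosed mice. It used 3 of the 7 arrays of the series: the untreated control, day 10 at 50 mg/kg and day 10 at 1250 mg/kg, chosen by their titles. Every array held brain RNA of 5-week-old female C57BL/6 mice. The control mice received no extract, and the labels do not say whether they were given a vehicle. Treated mice received a water extract of the plant by mouth once a day. The other 4 arrays held mice dosed for 1 or 3 days at the same doses, and all 6 treated arrays share the 1 control. Each condition has 1 array, so no difference here has a replicate check and none carries a test. The labels do not give the number of mice behind an RNA sample, the part of the brain taken or the hours between the last dose and collection. The arrays are Illumina bead arrays, which read biotin-labelled cRNA.

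Ephedra stems contain ephedrine and related alkaloids, which release noradrenaline and act on adrenergic receptors, and which reach the brain. Neuronal activity and arousal induce immediate early genes within minutes, and their transcripts are short-lived. Brain RNA is a mixture, so a transcript of 1 region or cell type is read diluted by all others. A lower value can come from fewer cells of a type or from less RNA per cell, which cannot be told apart in such samples.

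Levels are quantile-normalized log2 intensities with an arbitrary zero, and levels of different genes are not compared. A change is a day 10 level minus the control level, where 1 stands for a 2-fold difference. A pair of values is given for 50 and then 1250 mg/kg unless the doses are named. No label states the log base. Base 2, the usual one for such arrays, was taken for deposited values that span 10.0 units, and with natural logs every change given here would be 1.44 times larger. For 9009 named genes, the correlation across genes with the control was 0.993 for the day 10 array at 50 mg/kg and 0.990 for that at 1250 mg/kg. Of the brain cell lists, 12 of 17 astrocyte markers, 15 of 20 myelin and oligodendrocyte markers and 10 of 18 markers of cortical and hippocampal neurons had values. The lowest 10% of gene levels lay under about 0.18 on every array, where a change may be understated.

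Over all 9009 genes, 49.3% were higher and 50.5% lower than the control by any amount at 50 mg/kg, and 48.4% and 51.3% at 1250 mg/kg. At 50 mg/kg, 83 genes were at least 1.5-fold higher than the control (0.921% of all genes) and 42 were at least 1.5-fold lower (0.466%). At 1250 mg/kg, 129 were higher (1.43%) and 59 lower (0.655%). A 2-fold difference was passed at 50 mg/kg by 8 higher (0.0888%) and 4 lower genes (0.0444%), and at 1250 mg/kg by 40 (0.444%) and 8 (0.0888%). The genes shared by both doses were 37 higher (0.411%) and 14 lower (0.155%), and 0 genes (0%) passed 1.5-fold in opposite directions. Thus 44.6% of the genes higher at 50 mg/kg and 28.7% of those higher at 1250 mg/kg were higher at both, as were 33.3% and 23.7% of the lower genes. Both changes are taken from 1 control array, whose own deviations enter both. In the deposited values, without further normalization, the shared genes were 28 higher and 28 lower, so the share of higher genes was 50.0% there and 72.5% after quantile normalization. For single doses, that share moved from 66.4% to 44.0% at 50 mg/kg and from 68.6% to 48.1% at 1250 mg/kg.

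**Figure D1:**
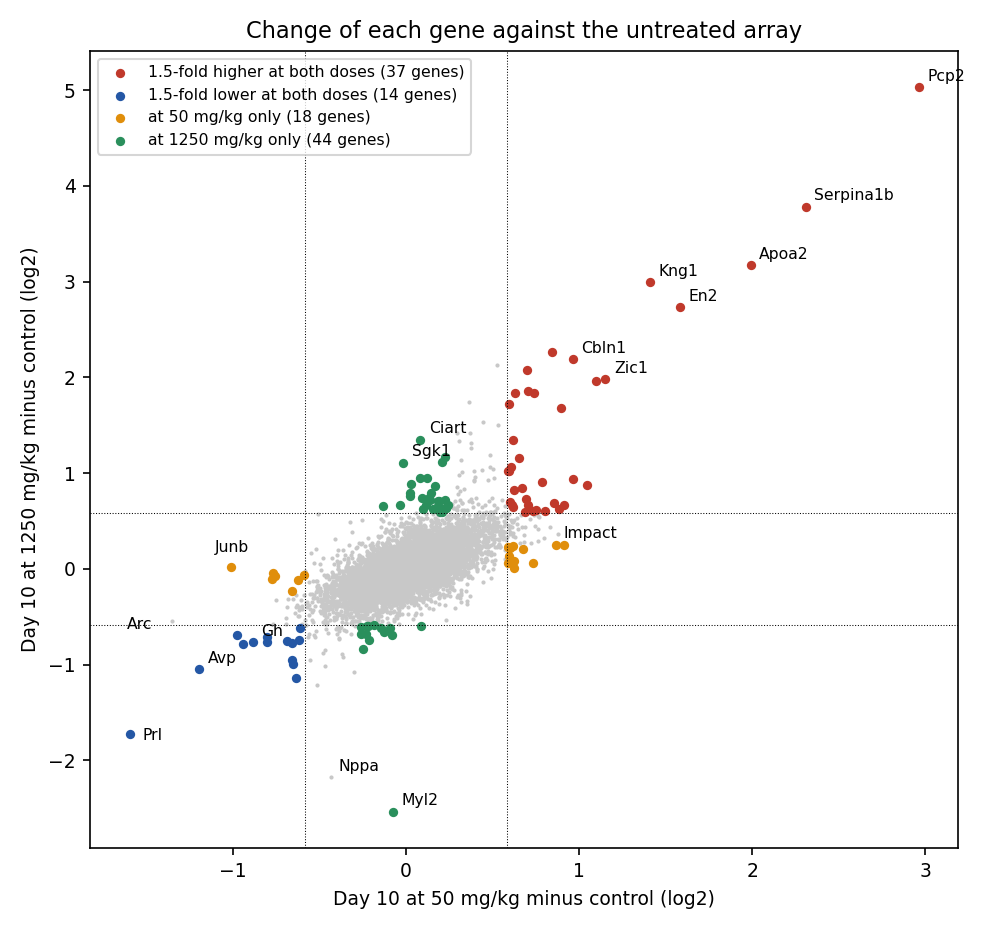
Change of each of 9009 genes against the untreated array at 50 mg/kg (horizontal axis, log2) and at 1250 mg/kg (vertical axis, log2) after 10 days of dosing, with dotted lines at 1.5-fold. The 37 red and 14 blue genes passed that fold at both doses, and Pcp2 is farthest out at 2.96 and 5.03.

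Genes past 1.5-fold at 1 dose and under 1.2-fold at the other were kept apart. By that rule, 11 genes were higher at 50 mg/kg only (0.122%) and 7 lower at that dose only (0.0777%). The high dose alone gave 30 higher genes (0.333%) and 14 lower ones (0.155%). The remaining genes past 1.5-fold lay between 1.2-fold and 1.5-fold in the same direction at the other dose. Past 1.5-fold at 50 mg/kg these were 35 higher and 21 lower genes, and past it at 1250 mg/kg they were 62 and 31. The edge of the shared class was sharp only by rule: Tle2 was inside at 0.69 and 0.59, and Armcx5 outside at 0.59 and 0.57, at 50 and 1250 mg/kg.

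Among the 37 shared higher genes were 4 cerebellar ones, Pcp2, En2, Cbln1 and Zic1, and Pcp2 was farthest above the control. Pcp2, made by Purkinje cells, measured 0.035 on the control, 3.00 after 10 days at 50 mg/kg and 5.07 after 10 days at 1250 mg/kg. On the other arrays it measured -0.63 and 0.40 after 1 day and 3.02 and 1.93 after 3 days, at 50 and 1250 mg/kg. The day 10 array at 1250 mg/kg was highest of all 7, that at 50 mg/kg lay next to the day 3 array of its dose, and the control sat with day 1 near the floor. En2, a homeobox factor of the midbrain and hindbrain, was at 0.17 on the control, 1.75 and 2.90 on day 10, -0.20 and -0.038 after 1 day and 1.89 and 1.03 after 3 days. As with Pcp2, the control and both day 1 arrays were low and the arrays of days 3 and 10 high.

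Cbln1, a synapse organizer released by cerebellar granule cells, was 1.95-fold and 4.55-fold higher than the control at 50 and 1250 mg/kg. Zic1, a zinc finger factor of granule cells, was 2.22-fold and 3.96-fold higher. Of 10 cerebellar genes with values, out of 20 listed, 9 were higher at 50 mg/kg and 10 at 1250 mg/kg. Over all genes 49.3% and 48.4% were higher. The number past 1.5-fold was 4 at 50 and 7 at 1250 mg/kg, beside 0.921% and 1.43% of all genes. Pcp2 and En2 were in the lowest 10% on the control and may have values only through other arrays, which was not tested. The medians of the list were 0.34 and 0.87, beside -0.0039 and -0.0079 for all genes. All 10 were higher at 1250 than at 50 mg/kg, a difference that does not involve the control. The share of all genes higher in that comparison by any amount was not counted, and 0.733% were at least 1.5-fold higher. The list's summed linear level, set to 1 on the control, was 1.30 and 2.58 on day 10, 0.968 and 0.934 after 1 day and 1.35 and 1.14 after 3 days.

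Further cerebellar genes were seen mainly at the high dose. Pvalb, a calcium-binding protein of Purkinje cells and fast-spiking interneurons, was at 6.22 on the control, 6.34 at 50 mg/kg and 7.17 at 1250 mg/kg on day 10, and 6.01 to 6.36 on days 1 and 3. Only its day 10 array at 1250 mg/kg stood apart. Its change at 50 mg/kg was -0.16 in the deposited values. Rgs8, a regulator of G protein signals in Purkinje cells, and Zic2, a relative of Zic1, had the same pattern on day 10, at 0.021 and -0.035 at 50 mg/kg and 0.80 and 0.67 at 1250 mg/kg. Lhx1, a LIM homeobox factor of Purkinje cells outside the list, differed by 0.60 and 1.72, and Gdf10, a growth factor of Bergmann glia, by 0.74 and 1.84. Dao, which encodes D-amino acid oxidase, was named after its value was seen and differed by 0.53 and 2.13.

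Of the hindbrain and serotonin list 1 gene was shared. Tph2, the brain enzyme of serotonin synthesis, was at 0.60 on the control, 1.26 and 1.76 on day 10, 0.0049 and 0.20 after 1 day and 2.01 and 2.10 after 3 days. Both day 10 arrays were above the control and day 1 and below day 3. Slc6a4, the serotonin transporter, differed from the control by 0.32 and 0.81, with 2 of the 3 arrays in the lowest 10%. The other 5 measured genes of that list, Ddc, Gata2, Gata3, Hoxb5 and Chat, stayed within 1.5-fold on both day 10 arrays. Cerebellar and hindbrain markers differ on the same arrays as the results that follow, and their part in those was not tested.

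Transcripts made mainly in liver formed the other large shared group. Serpina1b, a plasma protease inhibitor, was at -0.52 on the control, 1.79 on day 10 at 50 mg/kg and 3.26 at 1250 mg/kg. The other arrays read -0.59 and 3.45 after 1 day and -0.81 and 0.51 after 3 days. Both day 10 arrays and the day 1 array at 1250 mg/kg were high, and the control and both shorter courses at 50 mg/kg were at the floor. Apoa1 and Apoa2 are the main proteins of high density lipoprotein. Apoa1 was 2.14-fold and 3.90-fold above the control on day 10. Apoa2 was 3.98-fold and 9.03-fold above it. Kng1, the kininogen precursor, was at -0.63 on the control, in the lowest 10%, and 0.78 and 2.37 on day 10. Mat1a, which makes the methyl donor of liver, differed by 0.84 and 2.26. Also past 2-fold at 1250 mg/kg were Fgg (0.45 and 1.53), Cyp2a5 (0.31 and 1.34).

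The liver list held 16 genes with values, out of 38. Of these, 14 at 50 mg/kg and 16 at 1250 mg/kg were higher than the control, beside 49.3% and 48.4% of all genes. Past 1.5-fold were 7 and 11 of the list, beside 0.921% and 1.43% of all genes. Several, such as Serpina1b, Kng1 and Mat1a, were in the lowest 10% on the control. They may have values only through the arrays where they are high, which was not tested. The medians of the list were 0.49 and 1.52. All 16 were higher at 1250 than at 50 mg/kg, by a median of 1.00, again without a count over all genes to set beside it. Ttr, which the choroid plexus makes in quantity, differed by only 0.15 and 0.17. Brain cells also express Trf and Vtn, which differed by 0.11 and -0.10 at 50 mg/kg and 0.24 and 0.15 at 1250 mg/kg. Serpina1b, Apoc1, Apoc3 and Mup2 have relatives of similar sequence, which their probes may read. Apoc1 had a second probe, and with its probes averaged its change at 50 mg/kg was 0.50, under 1.5-fold.

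Of 4 measured red cell genes, out of 13 listed, 3 were higher than the control on both day 10 arrays. Of all genes, 35.8% were higher at both doses. Hbb-bt, a beta globin, was at 1.28 on the control, 1.98 and 3.36 after 10 days of 50 and 1250 mg/kg, 1.40 and 2.55 after 1 day and 2.14 and 1.70 after 3 days. Alas2, the heme enzyme of erythroid cells, differed by 0.37 and 1.75 on day 10, and Hba-a1, an alpha globin, by 0.47 and 0.93. Fech, the last enzyme of heme synthesis and active in most cells, was at -0.15 and -0.033. Hba-a1 at 1250 mg/kg was 0.57 in the deposited values, under 1.5-fold. Summed over the list, the red cell level was 1.39 and 1.94 times the control on day 10, and that of the liver list 1.13 and 1.31. The liver sum includes Ttr and Trf, which brain tissue also makes and which changed little. The 2 sums therefore do not rank the liver and red cell differences. The share of blood or of neighbouring tissue in these samples was not tested. Gsta3, a glutathione transferase that liver also makes, was higher by 0.62 and 1.34, while the other 17 measured genes of its oxidative stress list stayed within 1.5-fold on both arrays, led by Cat (0.30 and 0.33), Gstp1 (-0.33 and -0.18), Txnip (0.014 and 0.48).

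**Figure D2:**
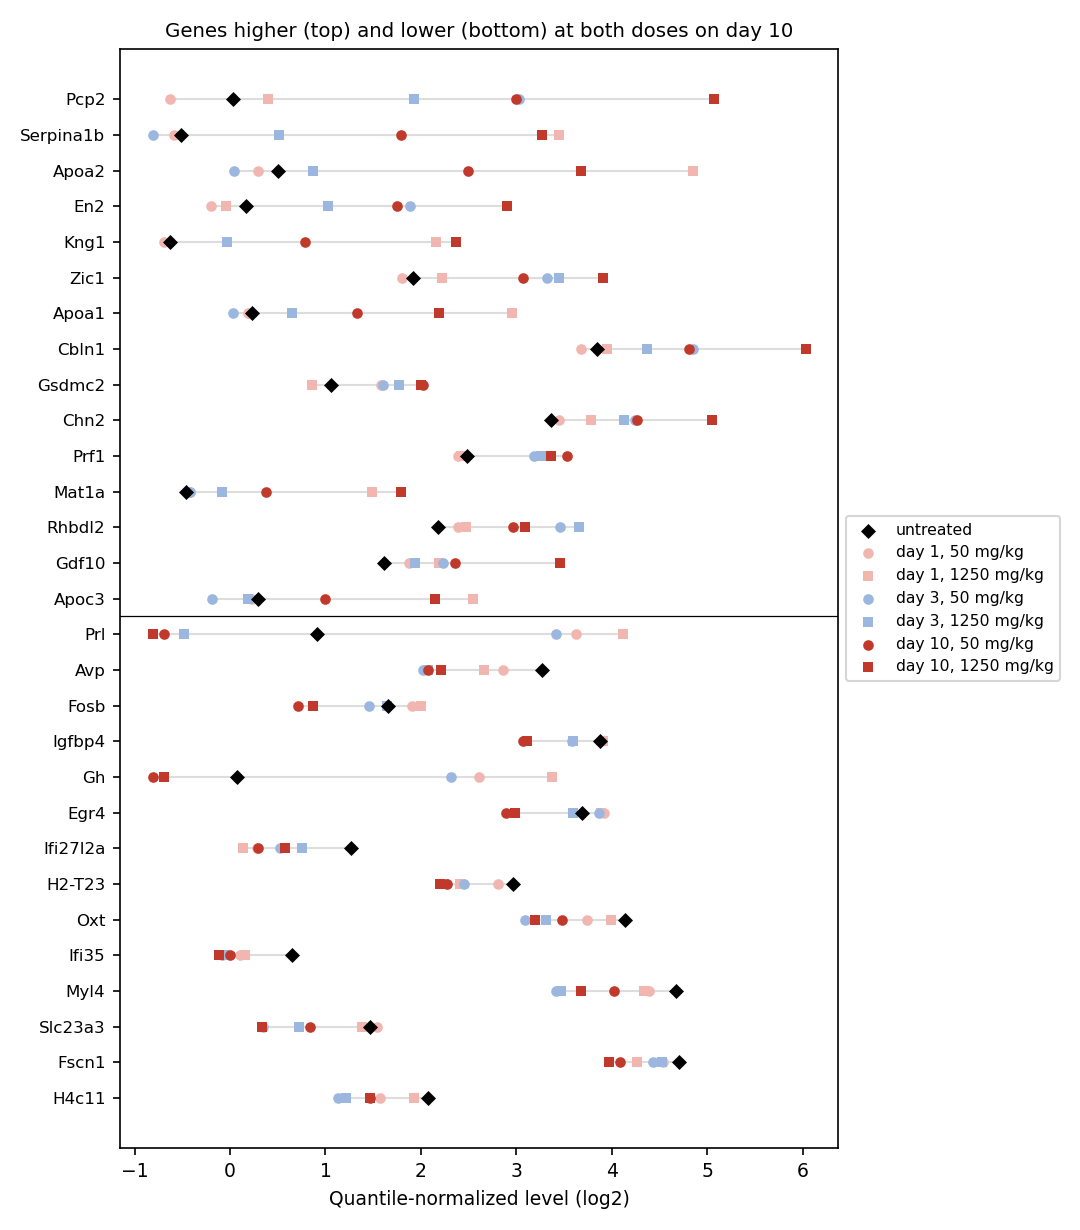
Quantile-normalized log2 level (horizontal axis) of the 15 highest and all 14 lower shared genes on all 7 arrays, with the control as a black diamond, day 10 in red, day 1 in pink and day 3 in blue. For Fosb and Egr4 both red points lie below the other 5, and for Avp, Oxt and Ifi35 the control lies above the other 6.

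Of the 37 shared higher genes 22 were on no list. Prf1, the pore-forming protein of cytotoxic lymphocytes, was at 2.49 on the control and 3.54 and 3.37 on day 10, above all other arrays (2.39 to 3.25). Gsdmc2, of the gasdermin family, was 1.95-fold and 1.92-fold higher than the control. Chn2, a Rac-regulating chimerin, was 1.86-fold and 3.20-fold higher, and Rhbdl2, a membrane protease, 1.72-fold and 1.88-fold. Rhbdl2 was higher still on day 3, at 3.45 and 3.65 beside 2.97 and 3.09 on day 10. The homeobox factor Meis1 differed by 0.59 and 1.02, Nrep by 0.60 and 1.03 and the receptor gene Gpr22 by 0.67 and 0.84. Zxda (0.92 and 0.67), the steroid enzyme gene Hsd3b2 (0.88 and 0.63), the amylase gene Amy1 (0.80 and 0.60) and Chp1 (0.73 and 0.60) were higher at 50 than at 1250 mg/kg. The other 2 probes of Chp1 did not have these signs at both doses. Ank1, Dynlt3, Ergic2, Erich5, Fam126b, Gpcpd1, Ovgp1 and Ube2q2 completed the shared higher genes, between 0.60 (Ovgp1, at 50 mg/kg) and 0.85 (Erich5, at 50 mg/kg). No other probe of Ank1, Ergic2, Fam126b or Ube2q2 fell in the shared class, that of Ube2q2 being at 0.32 and 0.065. Among the 37, 27 were farther from the control at 1250 than at 50 mg/kg, and the 10 others, such as Prf1 and Gsdmc2, were not.

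Among the 14 shared lower genes, Prl was farthest below the control. Prl, which encodes prolactin, was at 0.91 on the control, -0.69 and -0.81 on day 10, 3.63 and 4.11 after 1 day and 3.42 and -0.49 after 3 days. Gh, growth hormone, was at 0.074 on the control and -0.81 and -0.69 on day 10, all in the lowest 10%, beside 2.61 and 3.38 after 1 day and 2.31 and -0.69 after 3 days. Both hormones were thus at the floor on day 10 and far above it on 3 other arrays. Of 9 listed pituitary genes, only these 2 had values.

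Of 8 measured neuropeptide and marker genes of the hypothalamus 7 were lower at each dose, with medians of -0.36 and -0.53. Over all genes 50.5% and 51.3% were lower. Avp, the vasopressin precursor, was at 3.26 on the control, 2.07 and 2.21 on day 10, 2.86 and 2.66 after 1 day and 2.03 and 2.07 after 3 days. Oxt, the oxytocin precursor, differed by -0.66 and -0.95, Hcrt, the orexin precursor, by -0.57 and -0.72, and Cartpt by -0.40 and -0.68. The control of Avp was highest and the day 10 and day 3 arrays lay together. For 6 of the 8 (Avp, Oxt, Hcrt, Cartpt, Npy and Pmch) the control was the highest of all 7 arrays, which held for 13% of all genes. Gal was the exception, at 0.0069 and 0.28.

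Most immediate early genes were lower than the control on both day 10 arrays. Fosb, a partner of Jun proteins in the AP-1 factor, was at 1.66 on the control, 0.71 and 0.87 on day 10, 1.91 and 2.00 after 1 day and 1.46 and 1.64 after 3 days. Egr4, a zinc finger factor, was at 3.69 on the control, 2.89 and 2.98 on day 10, 3.91 and 3.89 after 1 day and 3.87 and 3.59 after 3 days. In both genes the 2 day 10 arrays lay below the other 5 and the groups did not overlap. Arc, which acts at synapses, was at 4.62 on the control, 3.28 at 50 mg/kg and 4.08 at 1250 mg/kg on day 10, 5.16 and 4.40 after 1 day and 4.89 and 4.06 after 3 days.

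Of 20 measured immediate early genes, out of 31 listed, 19 were lower at 50 mg/kg and 17 at 1250 mg/kg. Over all genes 50.5% and 51.3% were lower by any amount, and 0.466% and 0.655% at least 1.5-fold lower. In the list the numbers at least 1.5-fold lower were 6 (Fos, Fosb, Junb, Egr2, Egr4 and Arc) and 2 (Fosb and Egr4), and 0 were 1.5-fold higher. In the deposited values these numbers were 9 and 4, with Dusp1 (-0.65), Per1 (-0.67) and Nfil3 (-0.59) added at 50 mg/kg and Arc (-0.70) and Nfil3 (-0.63) at 1250 mg/kg. After median scaling they were 8 and 3, without Nfil3. The medians were -0.50 and -0.31, beside 0.088 and 0.13 after 1 day and 0.12 and -0.027 after 3 days. For 8 of the 20 (Fos, Fosb, Jund, Egr1, Egr2, Egr3, Egr4 and Npas4) both day 10 arrays lay below all 5 others, which held for 5.55% of all genes. The control was the highest array for 2 of the 20, beside 13% of all genes. Markers of cortical and hippocampal neurons had medians of -0.16 and -0.082 over 10 genes and 0 past 1.5-fold. Their medians in the deposited values were -0.22 and -0.29, beside -0.51 and -0.37 for the immediate early genes. There Camk2a, a kinase of excitatory neurons, passed 1.5-fold at 50 mg/kg (-0.61), and Nrgn, a calmodulin-binding protein of dendrites (-0.75), and Fezf2, a factor of deep cortical layers (-0.63), at 1250 mg/kg. After median scaling Nrgn passed at 1250 mg/kg (-0.69). Quantile-normalized, the list's 4 farthest genes were Fezf2 (-0.27 and -0.55), Nrgn (-0.20 and -0.51), Camk2a (-0.35 and -0.25), Tbr1 (-0.17 and -0.26). The part of these neurons in the lower immediate early genes was not tested.

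Cyclic AMP and calcium induce such genes through factors that bind TGACG, the core of the cyclic AMP response element. The stretches of 200 bases before the transcription start of 4 of them are shown because Fosb and Egr4 were lower at both doses, and Fos and Junb at 50 mg/kg only. They are from RefSeq (GRCm38.p6), written 5′ to 3′ on the strand of the gene, with TGACG or its reverse complement CGTCA in capitals.
Fosb, chr7:19310046-19310245, reverse strand: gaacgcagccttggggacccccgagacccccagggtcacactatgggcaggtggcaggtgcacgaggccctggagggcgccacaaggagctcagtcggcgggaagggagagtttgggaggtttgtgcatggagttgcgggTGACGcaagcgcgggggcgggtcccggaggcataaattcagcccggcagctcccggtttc
Egr4, chr6:85513590-85513789, reverse strand: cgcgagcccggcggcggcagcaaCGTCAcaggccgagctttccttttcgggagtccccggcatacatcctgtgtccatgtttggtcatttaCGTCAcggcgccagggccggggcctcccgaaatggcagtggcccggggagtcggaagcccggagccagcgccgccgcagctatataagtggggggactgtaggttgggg
Fos, chr12:85473690-85473889, forward strand: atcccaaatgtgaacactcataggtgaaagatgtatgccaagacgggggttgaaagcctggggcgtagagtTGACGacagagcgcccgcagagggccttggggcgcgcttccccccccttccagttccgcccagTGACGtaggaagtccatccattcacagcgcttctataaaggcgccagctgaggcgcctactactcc
Junb, chr8:84978749-84978948, reverse strand: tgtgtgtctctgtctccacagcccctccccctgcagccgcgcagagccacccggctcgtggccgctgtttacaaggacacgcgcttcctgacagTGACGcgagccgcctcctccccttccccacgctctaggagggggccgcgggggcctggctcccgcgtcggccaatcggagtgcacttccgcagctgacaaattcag
Fosb and Junb held 1 match each, -60 and -106 bases from the start. Fos held 2, at -129 and -66, and Egr4 2, at -177 and -109. Searched over 250 bases on both strands, 13 of 17 measured immediate early genes with a window held the motif in at least 1 window, beside 2199 of 7311 measured genes (30.1%). In the full palindromic element matches on both strands overlap. A match is a string of letters and not a shown binding site.

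**Figure D3:**
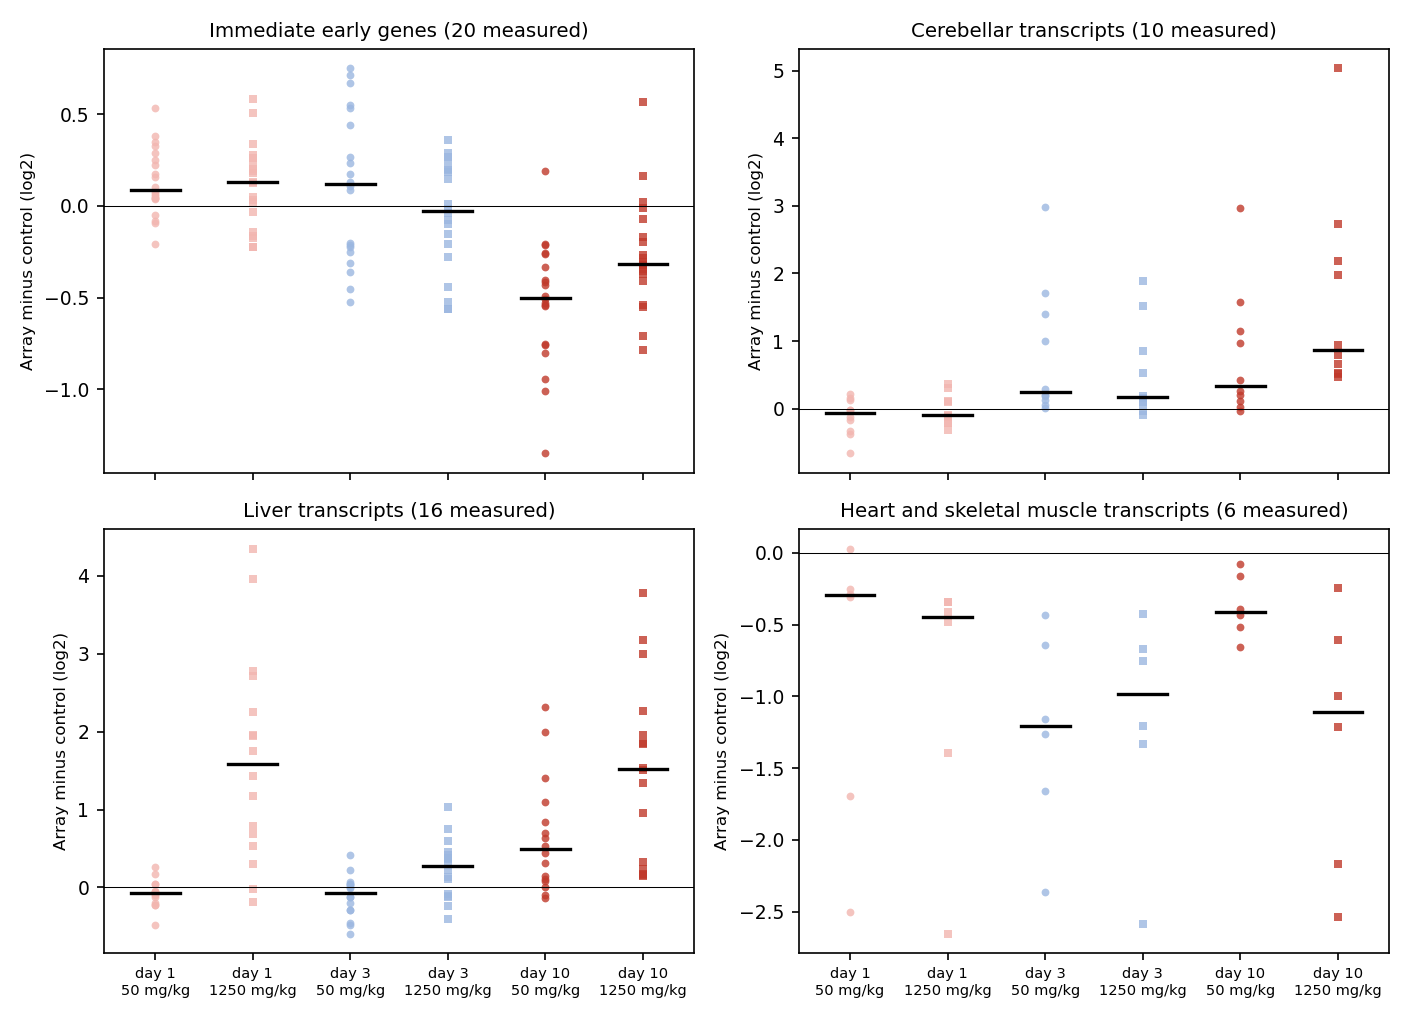
Change of each measured gene of 4 lists against the control (vertical axis, log2) on the 6 treated arrays, with a black bar at the median. The immediate early genes have medians of -0.50 and -0.31 on day 10, while the liver genes are high after 10 days and, at the high dose, after 1 day.

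Among the shared lower genes were 3 linked to interferon, none of them on the interferon list. Ifi27l2a, an interferon-induced membrane protein, was at 1.27 on the control, 0.29 and 0.57 on day 10, and 0.13 to 0.76 on the other 4 arrays. Ifi35 was at 0.65 on the control and -0.0011 and -0.12 on day 10, both in the lowest 10%. H2-T23, a nonclassical class I molecule, was 1.61-fold and 1.69-fold lower. The control was the highest array for all 3, as it was for 7 of 13 measured genes of the interferon list (13% of all genes). Of these 13 genes, 10 were lower at each dose, beside 50.5% and 51.3% of all genes. Usp18 passed 1.5-fold at 1250 mg/kg (-0.95), where 0.655% of all genes were that much lower. The next were Lgals3bp (-0.47 and -0.44), Isg15 (-0.35 and -0.53), Irf9 (-0.47 and -0.39). With the probes of H2-T23 averaged, its changes were -0.44 and -0.46, under 1.5-fold.

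Markers of microglia, the immune cells of the brain, were lower in 10 of 12 genes at 50 mg/kg and 12 of 12 at 1250 mg/kg, where 50.5% and 51.3% of all genes were lower. Their medians were -0.30 and -0.38. The complement subunits C1qa (-0.70 and -0.52) and C1qb (-0.52 and -0.65) each passed 1.5-fold at 1 dose. In the deposited values both passed at both doses, with C1qa at -0.60 at 1250 mg/kg and C1qb at -0.65 at 50 mg/kg, and the receptor genes Fcer1g (-0.63) and Trem2 (-0.61) passed at 1250 mg/kg. After median scaling C1qb passed at 50 mg/kg too (-0.62). Quantile-normalized, Fcer1g was at -0.42 and -0.50 and Trem2 at -0.32 and -0.57. Of 15 endothelial and pericyte genes 1 passed 1.5-fold, Kcnj8 at 50 mg/kg (-0.62, and -0.58 after median scaling). The next were Tie1 (-0.46 and -0.38), Vwf (0.17 and 0.51), Acta2 (-0.11 and -0.45).

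The other shared lower genes were of several kinds. Igfbp4, which binds insulin-like growth factors, was at 3.88 on the control and 3.07 and 3.11 on day 10, below the 3.58 to 3.91 of the other 4 treated arrays. A second probe of Igfbp4 was under 1.5-fold, at -0.57 and -0.54. Fscn1, the actin bundling protein fascin, was at 4.71 on the control, 4.09 and 3.97 on day 10 and 4.27 to 4.54 elsewhere, so the control was highest and day 10 lowest. Slc23a3, a member of the ascorbate transporter family, differed by -0.64 and -1.14, and the histone gene H4c11 by -0.61 at both doses.

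**Figure D4:**
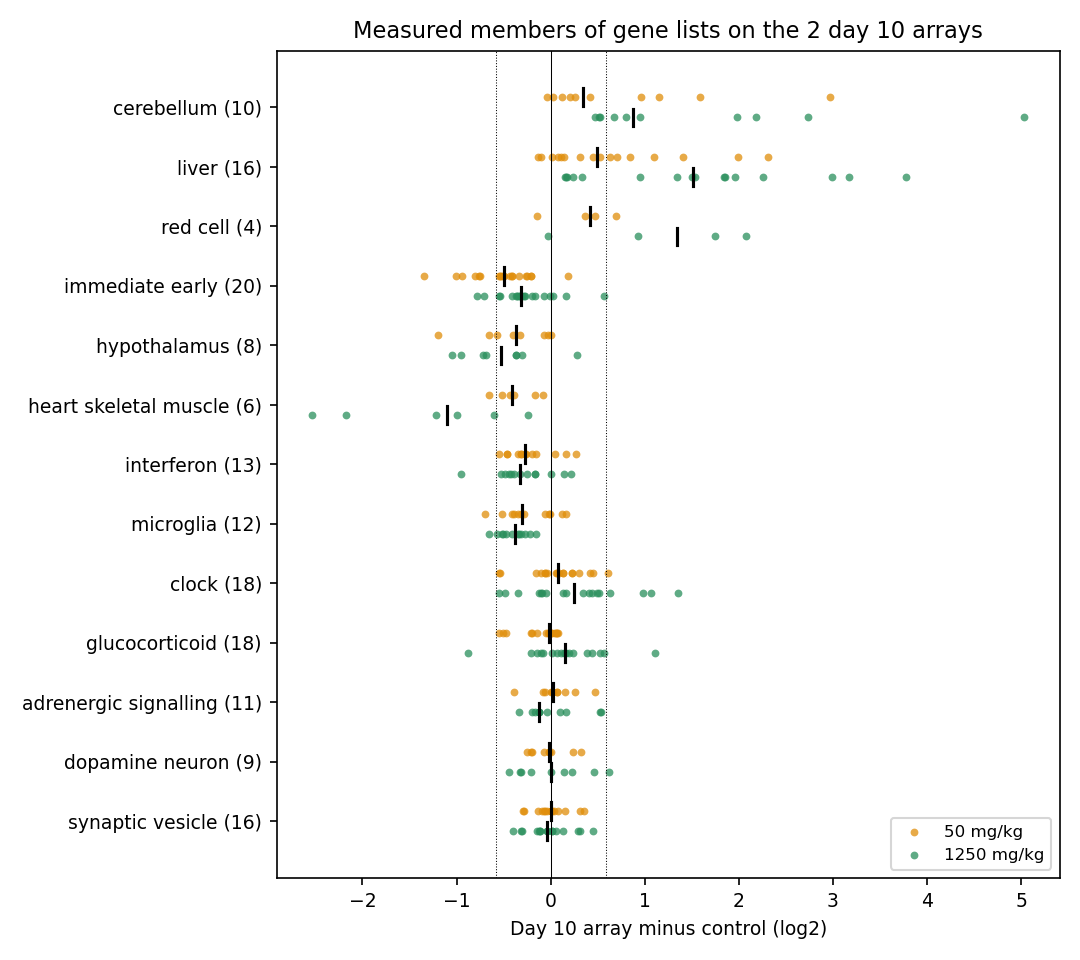
Change against the control (horizontal axis, log2) of the measured genes of 13 lists on the day 10 arrays at 50 mg/kg (orange) and 1250 mg/kg (green), with black bars at the medians and the number of genes in brackets. Cerebellar, liver and red cell genes lie higher at 1250 mg/kg, immediate early genes lie lower at both doses, and the synaptic vesicle genes lie around 0.

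At 1250 mg/kg only, the highest gene was a clock gene. Ciart, which represses the circadian activators, was at 2.31 on the control, 2.40 on day 10 at 50 mg/kg and 3.66 at 1250 mg/kg. The 4 arrays of days 1 and 3 read 2.38 to 2.65, so 1 array stood apart, and a second Ciart probe fell in the same class. Of the 7 genes higher at 1250 mg/kg only that had other probes, Ciart alone kept its class on all of them. Nr1d2, a nuclear receptor of the clock, was a shared gene at 0.61 and 1.07, and Dbp, a PAR bZIP factor with a daily rhythm, differed by 0.30 and 0.98. Of 18 measured clock genes 11 were higher at each dose, where 49.3% and 48.4% of all genes were, and the medians were 0.075 and 0.25. The repressor Nfil3 was lower at both doses (-0.54 and -0.55), past 1.5-fold in the deposited values (-0.59 and -0.63), and the activator Arntl at -0.058 and -0.49. Per1 was -0.55 at 50 and 0.16 at 1250 mg/kg. The control was the lowest array for 5 of the 18 (Nr1d2, Dbp, Tef, Bhlhe40 and Ciart), beside 11.1% of all genes. The labels give no hour of collection, and its part was not tested.

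The clock activators bind the E-box CACGTG, and the 200 bases before the Ciart start are shown, with each E-box in capitals, because this gene led the high dose class.
Ciart, chr3:95882229-95882428, reverse strand: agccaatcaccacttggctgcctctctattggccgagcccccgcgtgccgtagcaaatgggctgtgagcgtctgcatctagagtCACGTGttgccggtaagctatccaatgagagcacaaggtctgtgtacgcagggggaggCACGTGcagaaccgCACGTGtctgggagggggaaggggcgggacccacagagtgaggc
The 3 E-boxes began at -116, -58 and -44. Of 7311 measured genes with a window, 724 (9.90%) held at least 1 and 10 (0.137%) held 3 or more in a window of 250 bases. Of 15 measured clock genes with a window, 3 held one.

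Sgk1, a kinase induced by glucocorticoids, was at 5.28 on the control, 5.27 on day 10 at 50 mg/kg and 6.39 at 1250 mg/kg. On days 1 and 3 it read 5.82 and 6.30, then 6.05 and 6.49, so at 50 mg/kg it was above the control on those days and level with it on day 10. Nfkbia (-0.030 and 0.53), Ddit4 (-0.15 and 0.44) and Tsc22d3 (-0.017 and 0.39) were also higher at 1250 mg/kg, within 1.5-fold of the control. Of 18 glucocorticoid-responsive genes 7 were higher at 50 and 13 at 1250 mg/kg (49.3% and 48.4% of all genes), with medians of -0.016 and 0.15. Cdkn1a, a cell cycle inhibitor, went the other way at -0.48 and -0.88, and Fkbp5 was at -0.21 and -0.15.

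Cirbp, an RNA-binding protein induced by cold, was at 2.89 on the control, 3.06 and 3.75 on day 10, 3.43 and 3.47 after 1 day and 3.18 and 2.97 after 3 days. Its relative Rbm3, also induced by cold and named after its value was seen, was at 3.98 on the control, 4.36 and 5.24 on day 10 and 4.14 to 4.70 on the other treated arrays. Both were highest of all 7 arrays on day 10 at 1250 mg/kg. Kcng4, a modifier subunit of potassium channels, was 2.25-fold higher than the control at 1250 mg/kg. Mrgprf, an orphan receptor, was at 0.15 on the control, in the lowest 10%, and 1.27 at 1250 mg/kg. Scx, a transcription factor of tendon, differed by 0.89 and Hpx, the plasma protein hemopexin, by 0.95. Neuronal genes of the class were Calb2, a calcium-binding protein (0.74), Nefh, the heavy neurofilament (0.76), and Rora, a nuclear receptor of Purkinje cells and of the clock (0.63). Calb2 and Rora were under 1.5-fold in the deposited values. Usp2, a deubiquitinase with a daily rhythm, differed by 0.63, and by 0.24 and 0.35 at 1250 mg/kg on its other probes. The 16 others lay between 0.59 (Armh4) and 0.79 (6430571L13Rik).

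**Figure D5:**
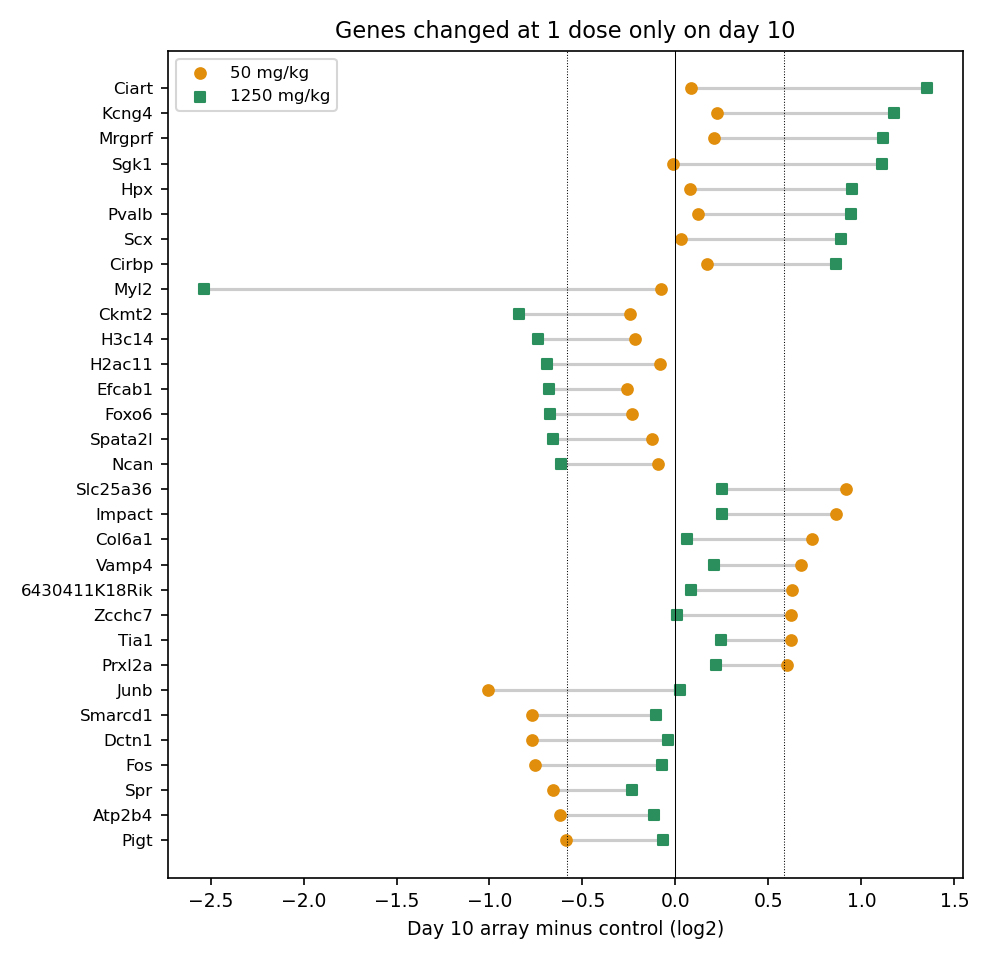
Change against the control (horizontal axis, log2) at 50 mg/kg (orange circles) and 1250 mg/kg (green squares) of the 31 named genes at least 1.5-fold from the control at 1 dose and under 1.2-fold at the other, with dotted lines at 1.5-fold. Myl2 has the widest gap, and Junb and Fos are low at 50 mg/kg alone.

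The muscle transcripts Myl2 and Nppa divided the day 10 arrays. Myl2, a myosin light chain of heart ventricle, was at 2.95 on the control, 2.87 on day 10 at 50 mg/kg and 0.41 at 1250 mg/kg, and 0.30 to 0.59 on the other 4 arrays. The control and the day 10 array at 50 mg/kg were high and the other 5 low. Nppa, an atrial hormone, gave the same division at 1.58, 1.15 and -0.59. Myl4 did not, at 4.68 on the control, 4.02 and 3.68 on day 10, 4.39 and 4.33 after 1 day and 3.42 and 3.47 after 3 days. Nor did Tnnc1, which at 50 mg/kg was lower on day 10 (2.84) than after 1 day (3.11). Of 6 measured muscle genes, 6 were lower at both doses, 1 past 1.5-fold at 50 mg/kg (Myl4, -0.66) and 5 at 1250 mg/kg. Over all genes 50.5% and 51.3% were lower by any amount, and 0.466% and 0.655% at least 1.5-fold lower. The control was the highest array for 5 of the 6 muscle genes, beside 13% of all genes. Among the 5 was Tnnc1, a troponin (-0.52 and -1.21), which passed at 50 mg/kg too in the deposited values (-0.59). Heart tissue was not part of the labelled sample, and the source of these transcripts was not tested.

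Other genes lower at 1250 mg/kg only lay closer to the threshold. Ckmt2, the creatine kinase of muscle mitochondria, differed by -0.84, with the control again highest of all arrays (0.42). The histone genes H3c14 (-0.74) and H2ac11 (-0.69), the forkhead factor Foxo6 (-0.68) and the matrix proteoglycan Ncan (-0.62) followed. H2ac11 was at -0.54 after median scaling, under 1.5-fold. Of the 14 genes, 8 were not among genes above the 25th percentile of mean level, so most of this class was dim. The remaining 8 genes, Col4a1, Efcab1, Fras1, Inf2, Noc3l, Pdlim5, Samd12 and Spata2l, lay between -0.68 (Efcab1) and -0.59 (Pdlim5).

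Of the 7 genes lower at 50 mg/kg only, Junb and Fos were on a list. Junb, an AP-1 subunit, was at 3.41 on the control, 2.40 at 50 mg/kg and 3.43 at 1250 mg/kg on day 10, and 3.46 to 3.96 on days 1 and 3. Fos was at 2.54, 1.78 and 2.47 in the same order and 2.64 to 3.29 on days 1 and 3. For both genes the array at 50 mg/kg was lowest of all 7, and that at 1250 mg/kg lay beside the control. Smarcd1, a chromatin remodelling subunit (-0.77), and Dctn1, of the dynein adaptor dynactin (-0.77), were lower too, and both other probes of Smarcd1 fell in the same class. Spr, the enzyme of the last step in tetrahydrobiopterin synthesis, was at -0.66, with its control the highest of all arrays. Atp2b4, a calcium pump (-0.62), and Pigt, an enzyme subunit that attaches lipid anchors (-0.59), lay near the threshold.

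Higher at 50 mg/kg only were Slc25a36, a mitochondrial nucleotide carrier (0.91), Impact, a regulator of the kinase Gcn2 (0.86), and Col6a1, a collagen VI chain (0.73). Impact was at 5.81 on the control, 6.68 and 6.07 after 10 days of 50 and 1250 mg/kg and 5.86 to 6.09 on days 1 and 3. A second probe of Col6a1 fell in the same class. Vamp4 (0.67), Zcchc7 (0.62) and Prxl2a (0.60) were under 1.5-fold in the deposited values and after median scaling. The other 5, 6430411K18Rik, Tia1, Abca8a, Cav1 and Smim15, lay between 0.59 (Smim15) and 0.63 (6430411K18Rik). In the deposited values 6430411K18Rik was under 1.5-fold too, at 0.58.

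Opposite differences of the doses on day 10 were small. At least 1.2-fold in opposite directions were 14 genes (0.155%), 5 lower at 50 and higher at 1250 mg/kg and 9 the other way. The leading one was Dusp1, a phosphatase of MAP kinases and an immediate early gene that glucocorticoids also induce, at -0.51 and 0.57. Tob2 (-0.32 and 0.49) and Klf2 (-0.41 and 0.32) followed its direction, and Csf2ra (0.36 and -0.37) and Cyp46a1 (0.32 and -0.34) opposed it. Without the control, 66 genes were at least 1.5-fold higher (0.733%) and 21 lower (0.233%) at 1250 than at 50 mg/kg on day 10. The widest gaps among the genes named were Pcp2 (2.07) upward and Myl2 (-2.46) and Nppa (-1.74) downward.

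The measured genes of lists closer to the known action of the extract mostly lay near the control. Of 25 listed adrenergic signalling genes only 11 had values. Adra2c (-0.061 and -0.16) was the only adrenergic receptor gene among them, so the receptors were mostly not read. Of the 11 genes 0 passed 1.5-fold at either dose, with medians of 0.028 and -0.12. The median at 50 mg/kg was -0.082 in the deposited values. The adenylyl cyclases Adcy1 (0.47 and 0.54) and Adcy9 (0.26 and 0.53) were its highest and Arrb1, an arrestin, its lowest (-0.39 and -0.34). Creb1, the cyclic AMP response element binding factor, was at 0.15 and 0.16. Of 9 dopamine neuron genes 1 passed, Aldh1a1 at 1250 mg/kg (0.62), and Th, the rate-limiting enzyme of dopamine synthesis, was at -0.20 and -0.21. The next in that list were En1 (0.24 and 0.46), Nr4a2 (-0.26 and -0.32).

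After quantile normalization no gene passed 1.5-fold in the lists of oxidative phosphorylation (55 genes), synaptic vesicles (16), heat shock (11), unfolded protein response (12), hypoxia and glycolysis (12), glutamate receptors (11), cell cycle (7) or oligodendrocytes and myelin (15). Their medians ran from -0.23 to 0.055 over both doses. This depended on the scaling. In the deposited values the vesicle medians were -0.25 and -0.26 and those of oxidative phosphorylation -0.33 and -0.24. There 3 genes passed at 50 mg/kg, the vesicle protein Syn1 (-0.60), the glutamate receptor Gria1 (-0.62) and the small heat shock protein Hspb1 (-0.61). Another 3 passed at 1250 mg/kg, the vesicle calcium sensor Syt1 (-0.63), the small heat shock protein Cryab (-0.64) and the chaperone Calr (-0.68). After median scaling Gria1 (-0.59), Cryab (-0.59) and Calr (-0.62) passed, and after cyclic loess Hspb1 at 50 mg/kg (-0.59).

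The members of these lists farthest from the control after quantile normalization were as follows. In oxidative phosphorylation they were the respiratory chain subunits Cox7a2 (0.52 and 0.46), Uqcrb (0.51 and 0.44), Sdhd (0.39 and 0.51), Cox6c (0.42 and 0.29). Among glutamate receptors they were Gria2 (0.48 and 0.37), Grin2b (-0.46 and -0.34), Gria1 (-0.47 and -0.20), Grm8 (0.27 and 0.11), and among vesicle genes Syt4 (0.31 and 0.45), Slc17a6 (0.35 and 0.31), Syt1 (-0.035 and -0.40), Syn1 (-0.29 and -0.13). The first of each of these lists was higher at both doses, but their members went both ways. The oxidative phosphorylation genes named went against most of that list. Of its 55 genes 35 were lower at 50 mg/kg and 30 at 1250 mg/kg, beside 50.5% and 51.3% of all genes. Of 11 glutamate receptor genes 5 and 7 were lower, and of 16 vesicle genes 7 and 9. Heat shock genes were led by Hspb1 (-0.58 and -0.53), Hspd1 (0.48 and 0.50), Cryab (-0.26 and -0.48), Bag3 (0.079 and 0.35), and the unfolded protein response by Calr (-0.47 and -0.58), Dnajb9 (0.29 and 0.48), Ddit3 (-0.32 and -0.38), Pdia4 (-0.26 and -0.42). Hypoxia and glycolysis genes were led by P4ha1 (-0.067 and -0.31), Vegfa (0.15 and 0.16), Ldha (-0.031 and -0.26), Hk1 (0.21 and 0.076), and cell cycle genes by Cenpa (-0.54 and -0.53), Mcm2 (-0.26 and -0.18), Mcm5 (-0.10 and -0.066), Sox4 (0.037 and -0.20). A second, dimmer probe of Vegfa went the other way, at -0.14 at both doses. The myelin list gave both directions, with Mobp (0.27 and 0.41), Cspg4 (-0.19 and -0.35), Mog (-0.26 and -0.14), Tspan2 (0.12 and 0.24).

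Of the striatal list all 10 measured genes were lower at 1250 than at 50 mg/kg, with 0 past 1.5-fold from the control. The share of all genes lower in that comparison by any amount was not counted. Against the control, 6 were higher and 4 lower at 50 mg/kg, with a median of 0.094. At 1250 mg/kg 1 was higher and 9 were lower, with a median of -0.28. The 4 with the largest mean change against the control were the 4 lower at 50 mg/kg. They were Drd2, a dopamine receptor (-0.21 and -0.44), Gpr6 (-0.28 and -0.43), Tac1 (-0.17 and -0.28), Scn4b (-0.080 and -0.17). Among GABA genes the synthesis enzyme Gad1 was at 0.40 and 0.42. The peptide gene Cck was at -0.46 and -0.50, and past 1.5-fold in the deposited values (-0.68 and -0.74) and after median scaling (-0.65 and -0.69). Of 12 astrocyte genes 1 passed, the water channel Aqp4 at 1250 mg/kg (0.64, and 0.47 in the deposited values), followed by Sox9 (0.30 and 0.27), Gfap (0.11 and 0.38), Id3 (-0.17 and -0.22). Of 14 meningeal and fibroblast genes 1 passed, Ogn at 50 mg/kg (0.75), followed by Fmod (-0.26 and -0.20), Lum (0.14 and 0.30), Slc22a6 (-0.26 and -0.17).

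Beside Calb2 and Rora, Cdhr1 of the olfactory bulb list (-0.60, and -0.57 after cyclic loess) and Tnnt1 of the thalamus list (-0.65) passed at 1250 mg/kg. Next in these lists were Doc2g (-0.17 and -0.30), Trh (-0.068 and -0.37) of the bulb and Slc17a6 (0.35 and 0.31), Gbx2 (-0.14 and -0.39) of the thalamus. No gene of the choroid plexus and neutrophil lists passed, led by Kcne2 (-0.22 and -0.43), Folr1 (-0.29 and -0.25), Otx2 (0.23 and 0.28), Igfbp2 (-0.18 and -0.18) and by S100a8 (-0.16 and 0.33), Mmp9 (-0.065 and 0.16).

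Values on the other arrays separate the shared genes into groups. Both day 10 arrays lay above the other 5 for 12 of the 37 higher genes (6.18% of all genes), among them Gsdmc2, Chn2, Prf1 and Gdf10. The control was the lowest of all 7 for 13 (11.1% of all genes), among them Mat1a, Rhbdl2, Hbb-bt and Nr1d2, and 3 belonged to both groups. For 15 neither held, among them Pcp2, En2, Serpina1b and Apoa2, which were also high on day 3 or on day 1 at 1250 mg/kg. Of the 14 lower genes, day 10 lay below the other 5 for 5 (5.55% of all genes), namely Prl, Fosb, Igfbp4, Egr4 and Fscn1. The control was the highest for 8 (13% of all genes), namely Avp, Ifi27l2a, H2-T23, Oxt, Ifi35, Myl4, Fscn1 and H4c11. The rule for the shared genes used the control and both day 10 arrays, so these counts describe and do not test.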

How the data were processed

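Brain RNA of 7 conditions was read on 7 Illumina bead arrays, 1 a condition, grouped by title. The deposited table holds log intensities as the authors processed them, read here as log2, which is an assumption. The labels state neither the log base nor the background step, software or rule for blank probes. Values on all 7 arrays exist for 13304 of 25697 probes (51.8%), and the other 12393 have no value on any array. A further deposited table has 7 columns of values whose names match no label, and they were not used.

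The 7 arrays were quantile normalized (limma 3.58.1, R 4.3.3; pandas 2.3.3, python 3.11.15). Probe names are GEO's platform annotation, updated by Entrez number, with 12150 probes of 1 symbol, 0 of several and 1154 unnamed. Each of 9009 genes has its probe of highest mean level, and 2273 genes have more than 1 probe. Among genes with other probes, all of these kept the class for 1 of 7 shared higher and 0 of 2 shared lower genes. At 50 mg/kg only they did so for 1 of 2 higher and 1 of 2 lower genes. At 1250 mg/kg only they did so for 1 of 7 higher and 0 of 2 lower genes. Changes are differences from the 1 control array, with no test and no p-value, and the number of arrays limits their precision. On simulated levels with shifts well past the threshold, the subtraction and the class rule recovered the known changes. The simulation could not test the normalization, the choice of probe or changes near the threshold.

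By rule the text names the 15 shared genes a direction with the largest smaller change of both doses, the 8 farthest of each class of 1 dose, up to 10 opposite genes, and in each list the 4 with the largest mean change and any past 2-fold. Other class and list members named, with Dao, Rbm3 and Armcx5, fall outside it and were chosen after their values were seen. Members, lists and thresholds were chosen with earlier results of these data known. Alternatives were the deposited scale, median scaling, cyclic loess, quantile normalization of the 3 arrays, 2 filters on dim genes, the mean of a gene's probes and a 2-fold threshold.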

Additional observations from a re-analysis of the deposited data

Results flagged for a closer look

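Both pituitary hormone genes differed in direction between day 1 and day 10 of dosing. For Prl, prolactin, the mean change against the control was 2.96 over the 2 day 1 arrays and -1.66 over the 2 day 10 arrays, on the log2 scale. For Gh, growth hormone, these means were 2.92 and -0.82. Both arrays of day 1 lay above the control and both arrays of day 10 below it for each gene. The 2 arrays of a day differ in dose and are not replicates. After 3 days Prl differed by 2.51 at 50 and -1.39 at 1250 mg/kg, and Gh by 2.24 and -0.76, so that day held both directions. Gh was in the lowest 10% on the control and on both day 10 arrays. The difference between day 1 and day 10 was not tested, and the control array enters all 4 means.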

How the results depend on the processing

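No paired analysis was possible because each condition has 1 array. Of 156 counts under the alternatives, 119 lay within 1.5 times those reported, and 0 called values reversed. The alternatives for list members against the other arrays were chosen after seeing the data. In the deposited values the lower genes were 79 at 50 mg/kg, 109 at 1250 mg/kg and 28 at both, 7 genes were higher at 50 mg/kg only, 10 shared lower genes had day 10 below the other 5 arrays, 17 had the control highest, and 3 clock genes had it lowest. Of the reported genes, 27 of 37 higher and 14 of 14 lower ones remained shared there. After median scaling 7 genes were higher at 50 mg/kg only and 8 shared lower genes had day 10 below the others. After cyclic loess 9 genes were lower at 1250 mg/kg only, and 6 among genes above the 25th percentile of mean level. Among genes above the median level, which are fewer by construction, 17 were higher and 7 lower at both doses, 6 higher at 50 mg/kg only, and 14 higher and 4 lower at 1250 mg/kg only. There 43 were higher and 21 lower by 1.5-fold and 2 higher by 2-fold at 50 mg/kg, with 46, 27, 9 higher by 2-fold and 3 lower by 2-fold at 1250 mg/kg. There also 6 list members were shared, day 10 stood apart for 7 higher and 3 lower genes, the control for 7 and 5, day 10 was lowest for 3 immediate early genes, and the control highest for 4 interferon and 2 muscle genes. At 2-fold, 7 genes were higher and 2 lower at both doses, 0 and 1 at 50 mg/kg only and 4 and 1 at 1250 mg/kg only. The cause of the differences between scalings was not tested. With 1 control array, a deviation of that array cannot be told apart from an effect shared by the doses, and changes of genes near the floor, such as Gh, Ckmt2 and Ifi35, rest on signals whose background step is unknown.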
